A study of Homo sapiens with 8 samples.

Results

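Integrins are the receptors through which cells hold on to the extracellular matrix, and 10 integrin subunit genes that epithelial cells typically use were followed here through the TGF-β response of a lung adenocarcinoma line. They are ITGA2, ITGA3, ITGA5, ITGA6 and ITGAV for the α chains and ITGB1, ITGB3, ITGB4, ITGB5 and ITGB6 for the β chains. The genes were chosen by name from 30017 gene symbols, with earlier results of these data known. All 10 had a mean TPM (transcript abundance scaled to transcript length and to a fixed total per library, a level that can be compared between genes) of at least 1 and were tested among 13141 genes. The cells were A549-S3KO, an A549 derivative whose own SMAD3 was disrupted, to which a lentiviral cDNA returned either Smad3(RA/KP), a double mutant (R104K A105P) in the β4 region of the DNA-binding MH1 domain, or wild-type Smad3. The study used this pair because the mutant form separates cell motility from other responses to TGF-β.

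There were 4 groups of 2 libraries each. They were Smad3(RA/KP) cells with TGF-β (1 ng/ml for 8 h), untreated Smad3(RA/KP) cells, wild-type Smad3 cells with the same TGF-β treatment, and untreated wild-type Smad3 cells. All groups shared the SMAD3 knockout background and a lentiviral Smad3. For sequencing, the methods describe cells detached with trypsin and seeded on type I collagen, a ligand of some of these integrins. TGF-β was added at the time of seeding. How long the untreated cells had been on collagen is not stated. The infected cells had been cloned by limiting dilution, and for the wild-type form the clone expressing least Smad3 was taken. Which clones went to sequencing is not named in the methods, so mutation and clone cannot be told apart. With 2 libraries per group the p-values measure the spread between these libraries.

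Each integrin is a pair of one α and one β chain, and the pair decides the ligand. The α2β1 pair binds collagen, α5β1 binds fibronectin, the αv pairs bind fibronectin, vitronectin and latent TGF-β through an Arg-Gly-Asp motif, and α3β1, α6β1 and α6β4 bind laminins. In epithelium the laminin receptors anchor cells to the basement membrane, α6β4 within hemidesmosomes, while fibronectin and αv receptors are known for their place in wound repair and epithelial-mesenchymal transition.

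The libraries held 1.15 to 1.81 Gb of mapped bases, and 12773 to 13281 genes reached 1 TPM. SMAD3, whose transcript here includes the introduced cDNA, was at 137 to 187 TPM in all 8. SMAD7, a standard Smad3 target, was at 30.7 to 36.5 TPM in the treated libraries and 14.6 to 15.5 TPM in the untreated ones. Of 5 epithelial markers, KRT8 and KRT18 were at 2533 TPM or more, EPCAM and CDH1 at 10.3 TPM or less, and KRT19 was listed at 0. Of the markers of other cells, 4 endothelial markers summed to at most 0.210 TPM, and 5 fibroblast markers to at most 5.61 TPM with DCN at 0. The fibroblast marker LUM averaged 2.66 TPM in treated and 4.27 TPM in untreated Smad3(RA/KP) cells. In wild-type Smad3 cells LUM averaged 0.899 TPM treated and 1.67 TPM untreated. The 6 leukocyte and platelet markers summed to 59.2 to 106 TPM in treated and 55.5 to 75.2 TPM in untreated libraries. Most of this was CD68, a lysosomal protein gene, at 51.0 to 104 TPM, while PTPRC and CD3E were listed at 0. Replicate 2 of the untreated Smad3(RA/KP) cells stood apart in base composition. Its log2 difference from replicate 1 had a Spearman correlation of -0.585 with the GC content of the transcripts over 12426 genes, against 0.101 to 0.224 for the same difference in the other 3 groups.

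ITGA2, ITGA5 and ITGB3 were higher with TGF-β in both lines and ITGAV in wild-type Smad3 cells, while ITGA3, ITGA6, ITGB1, ITGB4 and ITGB5 passed the test in neither line. The test was limma on log2(TPM + 1), adjusted over all 13141 genes at 0.05. The replicate number, taken as the experiment in which libraries were made, entered as a block, so that treated and untreated libraries were compared within replicates. In Smad3(RA/KP) cells 3 of the 10 genes rose with TGF-β (ITGA2, ITGA5 and ITGB3), where 3.49% of all genes did, and none of the 10 fell, where 1.5% of all genes did (4.98% changed in either direction). In wild-type Smad3 cells 4 of the 10 rose (the same 3 and ITGAV), where 2.94% of all genes did, and none fell, where 1.74% of all genes did (4.68% in either direction). The median change of the 10 genes was 0.58 on the log2 scale in Smad3(RA/KP) cells and 0.75 in wild-type Smad3 cells, beside -0.10 and -0.06 over all genes in those lines. Averaged over both lines, 5 of the 10 rose, ITGB6 being the fifth, where 6.22% of all genes did, and none fell, where 5.08% did (11.3% in either direction). Since these are bulk samples, fewer cells that express a gene and less of its RNA per cell cannot be told apart. Without the block 1 of the 10 passed in each line, ITGA5, and 5 of the 10 in the average of both.

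The windows around the transcription starts are shown for 4 of the 5 genes that rose, since these genes moved together. They run from 250 bases before to 50 bases after the RefSeq start (GRCh38.p14). The windows were read for CAGAC, which holds the core letters of the Smad3 binding element, and for TGANTCA, the AP-1 site, each on both strands. The capitals mark the matches, and the motifs overlap nowhere in these windows. ITGA5 is at chr12:54419217-54419516 on the minus strand, ITGAV at chr2:186589806-186590105 on the plus strand, ITGA2 at chr5:52989102-52989401 on the plus strand and ITGB6 at chr2:160200223-160200522 on the minus strand.
ITGA5: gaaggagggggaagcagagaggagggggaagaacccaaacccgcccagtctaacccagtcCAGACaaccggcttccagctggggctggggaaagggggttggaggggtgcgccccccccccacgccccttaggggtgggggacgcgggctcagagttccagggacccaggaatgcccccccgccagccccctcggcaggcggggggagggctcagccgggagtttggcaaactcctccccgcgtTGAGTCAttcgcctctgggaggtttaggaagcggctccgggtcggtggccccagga
ITGAV: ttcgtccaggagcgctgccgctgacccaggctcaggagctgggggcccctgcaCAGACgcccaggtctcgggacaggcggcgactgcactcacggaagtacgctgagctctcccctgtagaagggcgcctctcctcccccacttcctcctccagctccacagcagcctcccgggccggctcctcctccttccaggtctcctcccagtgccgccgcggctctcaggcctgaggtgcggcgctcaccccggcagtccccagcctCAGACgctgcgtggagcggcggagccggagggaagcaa
ITGA2: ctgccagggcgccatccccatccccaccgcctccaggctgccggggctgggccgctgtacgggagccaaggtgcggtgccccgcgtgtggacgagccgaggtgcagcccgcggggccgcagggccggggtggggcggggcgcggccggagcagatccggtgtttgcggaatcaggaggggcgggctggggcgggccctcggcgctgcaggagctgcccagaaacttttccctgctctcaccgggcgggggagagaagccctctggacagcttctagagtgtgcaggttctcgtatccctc
ITGB6: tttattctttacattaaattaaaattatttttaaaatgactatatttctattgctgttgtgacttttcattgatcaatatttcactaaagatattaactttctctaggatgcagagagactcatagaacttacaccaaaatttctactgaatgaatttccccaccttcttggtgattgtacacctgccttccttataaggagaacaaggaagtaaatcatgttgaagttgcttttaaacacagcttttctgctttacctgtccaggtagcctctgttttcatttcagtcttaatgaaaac
ITGA5 had CAGAC at -190 and the AP-1 letters TGAGTCA at -6 from the start, the ITGAV window shown had CAGAC at -197 and 12, and the ITGA2 and ITGB6 windows had neither motif. A further ITGAV window, at chr2:186599955-186600254 on the plus strand, is not shown and had neither motif. The table held 12 windows of 7 of the 10 genes (ITGA3, ITGB3 and ITGB4 were not matched). CAGAC was in 4 of these 12 windows, the other 2 being of ITGB1, which did not pass the test, and TGANTCA was in 1. Over all 35116 windows of this length CAGAC was in 45.3% and TGANTCA in 7.71%, so letters of this kind are common and a match describes the sequence only.

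ITGA2 encodes the α2 chain, which with β1 forms the main collagen receptor of epithelial cells (GRCh38 chromosome 5, 52989326 to 53094779, plus strand). Its mRNA was at 23.2 and 29.2 TPM in Smad3(RA/KP) cells with TGF-β (replicates 1 and 2, in this order throughout), against 4.43 and 14.7 TPM in untreated Smad3(RA/KP) cells. It was at 23.1 and 48.6 TPM in wild-type Smad3 cells with TGF-β and 4.75 and 7.28 TPM in untreated ones. The treated libraries were above the untreated ones in each line, with the untreated Smad3(RA/KP) replicate 2 the highest of the untreated libraries. ITGA2 rose in Smad3(RA/KP) cells by a log2 fold change of 1.55 ± 0.29 (SE, adjusted p = 0.0174) and in wild-type Smad3 cells by 2.33 ± 0.29 (adjusted p = 0.00249). In the average of both lines its change was 1.94, the largest among the 10 genes on this scale, and that of ITGA5 was 1.85. That order turned round with a pseudocount of 5 TPM, at 1.51 for ITGA2 and 1.72 for ITGA5, and with no pseudocount ITGA2 (2.102) and ITGB3 (2.109) were level. The call in Smad3(RA/KP) cells was lost when any 1 of the 4 treated libraries was left out (adjusted p = 0.135 without treated Smad3(RA/KP) replicate 1, 0.0525 without its replicate 2, and 0.0535 and 0.0559 without treated wild-type replicates 1 and 2), without the block (adjusted p = 0.185) and without a filter on low values (adjusted p = 0.115). The call in wild-type Smad3 cells was lost without treated wild-type replicate 1 (adjusted p = 0.0536) or 2 (adjusted p = 0.0643), and without the block (adjusted p = 0.0554).

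By contrast, ITGB1, the β chain shared by most receptors of this set (chromosome 10, 32900318 to 32958365, minus strand), was abundant in every library. It had 296 and 256 TPM in Smad3(RA/KP) cells with TGF-β against 234 and 460 TPM untreated, and 312 and 410 TPM in wild-type Smad3 cells with TGF-β against 249 and 264 TPM untreated. The Smad3(RA/KP) groups overlapped, the untreated replicate 2 being the highest of all 8 libraries, and the wild-type groups did not. Its log2 fold change was -0.25 ± 0.25 in the Smad3(RA/KP) line (adjusted p = 0.580) and 0.48 ± 0.25 in wild-type Smad3 cells (adjusted p = 0.408). Without the untreated Smad3(RA/KP) replicate 2 the value in Smad3(RA/KP) cells was 0.19, and with each library's smooth trend on GC content removed it was 0.11.

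The scarcer chain of the α2β1 pair at the mRNA level was therefore ITGA2 in all 8 libraries. The ratio of ITGA2 to ITGB1 TPM was 0.0784 and 0.114 in Smad3(RA/KP) cells with TGF-β against 0.0189 and 0.0319 untreated, and 0.0741 and 0.119 in wild-type Smad3 cells with TGF-β against 0.0191 and 0.0275 untreated. The ratio was higher with TGF-β in both lines and in both replicates.

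ITGA5 encodes the α5 chain of the classical fibronectin receptor (chromosome 12, 54395261 to 54419266, minus strand) and passed the test under every setting tried. It was at 87.7 and 124 TPM in Smad3(RA/KP) cells with TGF-β against 23.9 and 34.5 TPM untreated. The wild-type Smad3 cells had 72.9 and 140.0 TPM with TGF-β, beside 21.5 and 33.1 TPM untreated. Every treated library lay above every untreated one, and within replicates the TPM ratio was 3.67 and 3.60 in Smad3(RA/KP) cells and 3.39 and 4.23 in wild-type Smad3 cells. ITGA5 rose by a log2 fold change of 1.83 ± 0.17 in the Smad3(RA/KP) line (adjusted p = 0.000827) and 1.88 ± 0.17 in wild-type Smad3 cells (adjusted p = 0.000663). It passed in both lines without each library in turn (adjusted p at most 0.0281) and under each of the 10 other settings tried (adjusted p at most 0.0375).

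**Figure D1:**
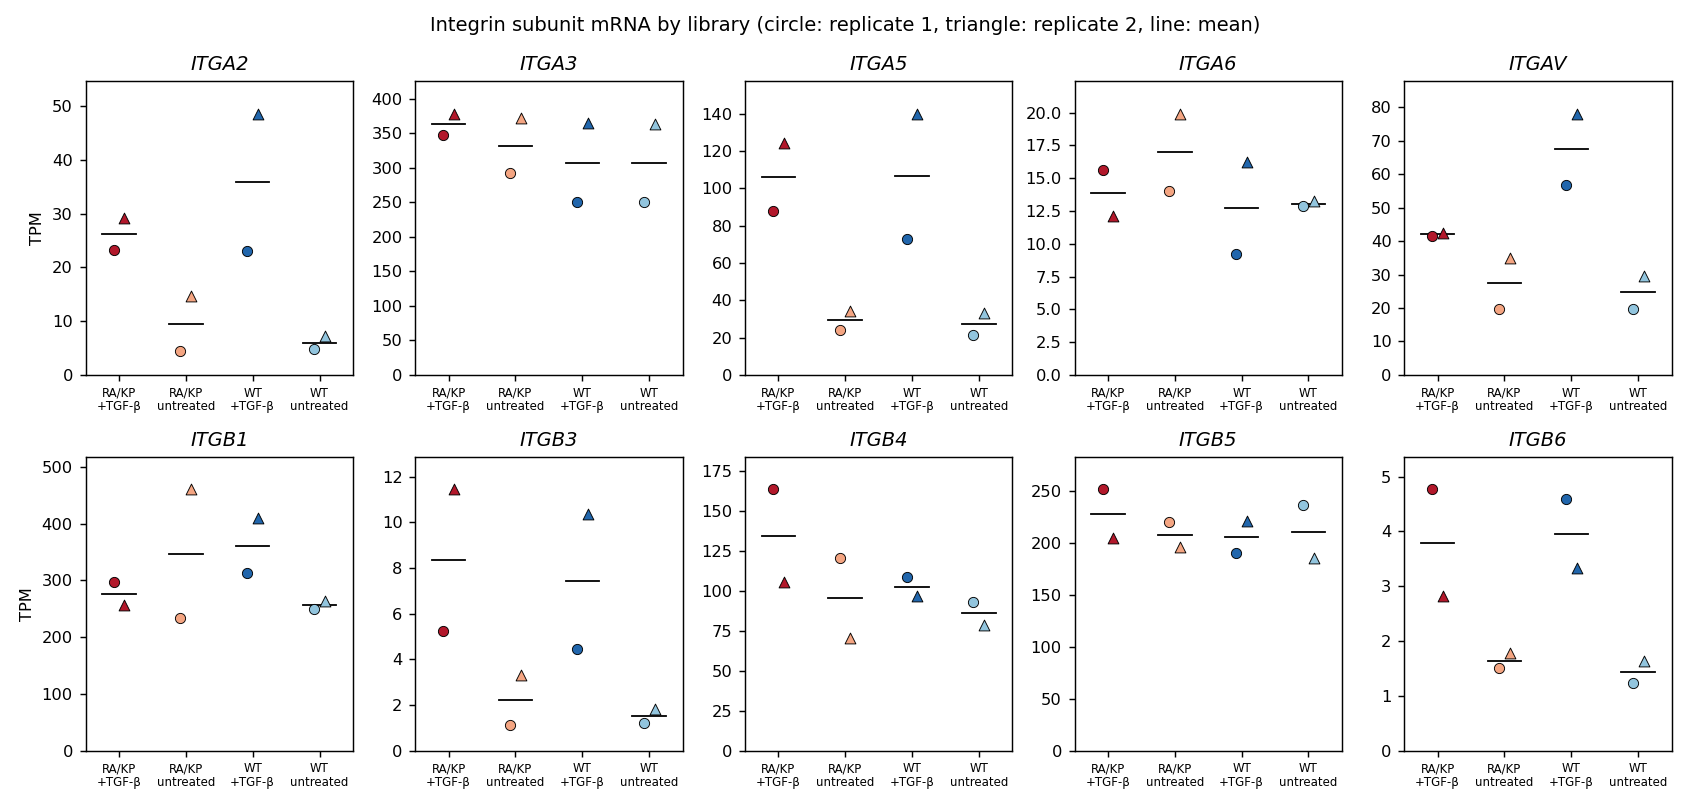
TPM of the 10 integrin subunit mRNAs in each library, for Smad3(RA/KP) cells with TGF-β and untreated and wild-type Smad3 (WT) cells with TGF-β and untreated; circles are replicate 1, triangles replicate 2, lines the mean of 2, and each panel has its own axis from 0. ITGA5 separates treated from untreated libraries in both lines (72.9 to 140.0 against 21.5 to 34.5 TPM), while the ITGA3 groups overlap (250 to 378 TPM in all 8 libraries).

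ITGAV encodes the αv chain shared by the αv pairs, which bind through an Arg-Gly-Asp motif (chromosome 2, 186589645 to 186680902, plus strand). It was at 41.6 and 42.6 TPM in Smad3(RA/KP) cells with TGF-β against 19.8 and 35.1 TPM untreated. In wild-type Smad3 cells it was at 57.0 and 78.1 TPM with TGF-β, beside 19.8 and 29.6 TPM untreated. The treated libraries of Smad3(RA/KP) cells thus lay above their untreated libraries and below both treated libraries of wild-type Smad3 cells. ITGAV rose in wild-type Smad3 cells by a log2 fold change of 1.42 ± 0.21 (adjusted p = 0.00555) and had 0.65 ± 0.21 in the Smad3(RA/KP) line (adjusted p = 0.114), which did not pass. The call in wild-type Smad3 cells was lost without treated wild-type replicate 1 (adjusted p = 0.104) or 2 (adjusted p = 0.0920), without untreated wild-type replicate 1 (adjusted p = 0.0571) and without the block (adjusted p = 0.0541). With the GC trend of each library removed ITGAV also passed in Smad3(RA/KP) cells, at 1.10 (adjusted p = 0.00812), and with median-ratio scaling at 0.75 (adjusted p = 0.0488).

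ITGB3, the β chain of the αvβ3 vitronectin receptor (chromosome 17, 47253842 to 47312711, plus strand), was among the scarcest chains and rose in both lines. It was at 5.26 and 11.5 TPM in Smad3(RA/KP) cells with TGF-β against 1.13 and 3.30 TPM untreated, and at 4.47 and 10.4 TPM in wild-type Smad3 cells with TGF-β against 1.20 and 1.82 TPM untreated. Replicate 2 was above replicate 1 in all 4 groups, and the treated libraries lay above the untreated ones. The log2 fold change was 1.55 ± 0.27 in the Smad3(RA/KP) line (adjusted p = 0.0136) and 1.66 ± 0.27 in wild-type Smad3 cells (adjusted p = 0.00916). The call in Smad3(RA/KP) cells was lost without treated Smad3(RA/KP) replicate 1 (adjusted p = 0.0753) or 2 (adjusted p = 0.128) and without the untreated replicate 2 (adjusted p = 0.0511). The call in wild-type Smad3 cells was lost without treated wild-type replicate 1 (adjusted p = 0.111) or 2 (adjusted p = 0.166) and without the untreated replicate 2 (adjusted p = 0.136). Without the block the adjusted p was 0.176 in Smad3(RA/KP) cells and 0.153 in wild-type Smad3 cells, and without a filter on low values 0.0734 and 0.0580. The size of the change depended on the pseudocount at this low level, from 0.87 with 5 TPM added to 2.01 with none in Smad3(RA/KP) cells and from 0.89 to 2.21 in wild-type Smad3 cells.

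ITGB6, the β chain of αvβ6, an epithelial receptor known for activating latent TGF-β (chromosome 2, 160099666 to 160200313, minus strand), had the lowest mean level of the 10, although ITGB3 was below it in 3 of the 8 libraries. It was at 4.77 and 2.81 TPM in Smad3(RA/KP) cells with TGF-β against 1.5 and 1.78 TPM untreated, and at 4.60 and 3.33 TPM in wild-type Smad3 cells with TGF-β against 1.24 and 1.63 TPM untreated. All treated libraries were above all untreated ones. The log2 fold change was 0.83 ± 0.30 in the Smad3(RA/KP) line (adjusted p = 0.156) and 1.02 ± 0.30 in wild-type Smad3 cells (adjusted p = 0.101), neither past the threshold. In the average of both lines ITGB6 rose by 0.92 ± 0.21 (adjusted p = 0.0232), a value of 0.44 with a pseudocount of 5 TPM and 1.31 with none. That call was lost without treated wild-type replicate 1 (adjusted p = 0.138) or 2 (adjusted p = 0.0909), untreated wild-type replicate 1 (adjusted p = 0.122) or treated Smad3(RA/KP) replicate 1 (adjusted p = 0.0854), and without a filter on low values (adjusted p = 0.0728). With the GC trend of each library removed ITGB6 passed in each line, at 1.18 in the Smad3(RA/KP) line (adjusted p = 0.0280) and 1.07 in wild-type Smad3 cells (adjusted p = 0.0322).

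ITGB5, the partner of αv in the αvβ5 vitronectin receptor (chromosome 3, 124761948 to 124887653, minus strand), was far more abundant than ITGB3 and ITGB6, the other β chains read here only with αv. It had 251 and 205 TPM in Smad3(RA/KP) cells with TGF-β against 220 and 195 TPM untreated, and 190 and 221 TPM in wild-type Smad3 cells with TGF-β against 236 and 185 TPM untreated. The groups overlapped in both lines, with log2 fold changes of 0.13 ± 0.18 in the Smad3(RA/KP) line (adjusted p = 0.689) and -0.03 ± 0.18 in wild-type Smad3 cells (adjusted p = 0.972). The ratio of ITGB5 to the summed TPM of ITGB3 and ITGB6 was 25.1 and 14.3 in Smad3(RA/KP) cells with TGF-β against 83.5 and 38.5 untreated, and 20.9 and 16.1 in wild-type Smad3 cells with TGF-β against 97.0 and 53.7 untreated. ITGB5 remained in large excess over ITGB3 and ITGB6 in every library, by a smaller factor with TGF-β.

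Among the laminin receptor chains, ITGA3, the α3 chain of the main laminin receptor of lung epithelium (chromosome 17, 50055976 to 50090485, plus strand), had the highest mean level of the set. It had 348 and 378 TPM in Smad3(RA/KP) cells with TGF-β against 292 and 372 TPM untreated, and 250 and 364 TPM in wild-type Smad3 cells with TGF-β against 250 and 363 TPM untreated. In wild-type Smad3 cells the treated and untreated libraries of a replicate were almost equal, and replicate 2 was above replicate 1 in all 4 groups. Its log2 fold change was 0.14 (95% interval -0.23 to 0.51) in Smad3(RA/KP) cells and 0.00 (-0.36 to 0.37) in wild-type Smad3 cells.

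ITGA6, the laminin-binding α6 chain that pairs with β1 or β4 (chromosome 2, 172427586 to 172506453, plus strand), was at 9.18 to 19.9 TPM. It was the scarcest α chain in all 4 treated libraries, whereas ITGA2 was in all 4 untreated ones. It had 15.6 and 12.1 TPM in Smad3(RA/KP) cells with TGF-β beside 14 and 19.9 TPM untreated, and 9.18 and 16.2 TPM in wild-type Smad3 cells with TGF-β against 12.9 and 13.3 TPM untreated. The groups overlapped in both lines, and the log2 fold changes were -0.26 ± 0.27 in the Smad3(RA/KP) line (adjusted p = 0.593) and -0.09 ± 0.27 in wild-type Smad3 cells (adjusted p = 0.941).

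ITGB4, the hemidesmosomal β4 chain, whose long cytoplasmic tail binds plectin (chromosome 17, 75721436 to 75757818, plus strand), had 164 and 106 TPM in Smad3(RA/KP) cells with TGF-β against 121 and 70.2 TPM untreated. The wild-type Smad3 cells had 109 and 96.8 TPM with TGF-β, beside 92.8 and 78.9 TPM untreated. The treated library was above its untreated counterpart in both replicates of both lines, while replicate 1 was above replicate 2 in all 4 groups. The log2 fold change was 0.51 ± 0.19 in the Smad3(RA/KP) line (adjusted p = 0.170) and 0.26 ± 0.19 in wild-type Smad3 cells (adjusted p = 0.603), so neither passed. Without the untreated Smad3(RA/KP) replicate 1 ITGB4 passed in Smad3(RA/KP) cells, at 0.73 (adjusted p = 0.0404).

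Counted without a test, the treated libraries lay wholly above the untreated ones for 5 of the 10 genes in Smad3(RA/KP) cells (19.0% of all genes did so) and for 7 of the 10 in wild-type Smad3 cells (17.8% of all genes). The 5 were ITGA2, ITGA5, ITGAV, ITGB3 and ITGB6, and wild-type Smad3 cells added ITGB1 and ITGB4. No integrin gene of the 10 had its treated libraries wholly below the untreated ones, as 25.4% of all genes had in Smad3(RA/KP) cells and 27.9% in wild-type Smad3 cells.

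In order of mean TPM over the 8 libraries, the chains stood at 327 for ITGA3, 310 for ITGB1, 213 for ITGB5, 105 for ITGB4, 67.3 for ITGA5, 40.5 for ITGAV, 19.4 for ITGA2, 14.1 for ITGA6, 4.88 for ITGB3 and 2.71 for ITGB6. These means pool treated and untreated libraries, and the order was not the same in both. Mean ITGA2 was above ITGA6 with TGF-β (26.2 and 13.9 TPM in Smad3(RA/KP) cells, 35.9 and 12.7 TPM in wild-type Smad3 cells) and below it untreated (9.54 and 17.0 TPM in Smad3(RA/KP) cells, 6.01 and 13.1 TPM in wild-type Smad3 cells). Over all 8 libraries, treated and untreated, the ranges of neighbours in this order overlapped (250 to 378 TPM for ITGA3 and 234 to 460 TPM for ITGB1, for example), with 1 exception. That step was between ITGB5 (185 to 251 TPM) and ITGB4 (70.2 to 164 TPM). The highest chain stood above 96.7% of all genes tested and the lowest above 16%.

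Read as pairs, the α chain was the scarcer mRNA in all 8 libraries for α2β1, α5β1, αvβ1, αvβ5, α6β1 and α6β4, and the β chain was the scarcer in all 8 for αvβ3 and αvβ6. For α3β1 the 2 chains were close, the ratio of ITGA3 to ITGB1 lying between 0.802 and 1.48, with ITGA3 the scarcer in 3 of the 8 libraries. The mean TPM of the scarcer chain of α5β1 was 106 ± 25.8 in Smad3(RA/KP) cells with TGF-β against 29.2 ± 7.51 untreated (SD, n = 2), and 107 ± 47.4 in wild-type Smad3 cells with TGF-β against 27.3 ± 8.20 untreated. For α6β4 it was 13.9 ± 2.43 in Smad3(RA/KP) cells with TGF-β against 17.0 ± 4.18 untreated, and 12.7 ± 4.96 in wild-type Smad3 cells with TGF-β against 13.1 ± 0.276 untreated. These are mRNA levels, and the amounts of the assembled receptors were not measured.

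The make-up of the α chain mRNA differed with TGF-β, the shares of ITGA2, ITGA5 and ITGAV together being larger and those of ITGA3 and ITGA6 smaller. ITGA3 made up 67.4 and 64.5% of the summed TPM of the 5 α chains in Smad3(RA/KP) cells with TGF-β against 82.5 and 78.1% untreated, and 60.7 and 56.3% in wild-type Smad3 cells with TGF-β against 80.9 and 81.3% untreated. ITGA2, ITGA5 and ITGAV together made up 29.6 and 33.4% in Smad3(RA/KP) cells with TGF-β against 13.6 and 17.7% untreated, and 37.1 and 41.2% in wild-type Smad3 cells with TGF-β against 14.9 and 15.7% untreated. ITGA6 made up 3.02 and 2.07% in Smad3(RA/KP) cells with TGF-β against 3.95 and 4.18% untreated, and 2.23 and 2.50% in wild-type Smad3 cells with TGF-β against 4.17 and 2.97% untreated. Shares were thus separated by treatment in both lines, ITGA3 still being the most abundant α chain in every library. The β chain mRNA was less changed: ITGB3 and ITGB6 together stayed at 2.46% or less of the summed β chain TPM, with ITGB1 the largest share in every library.

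**Figure D2:**
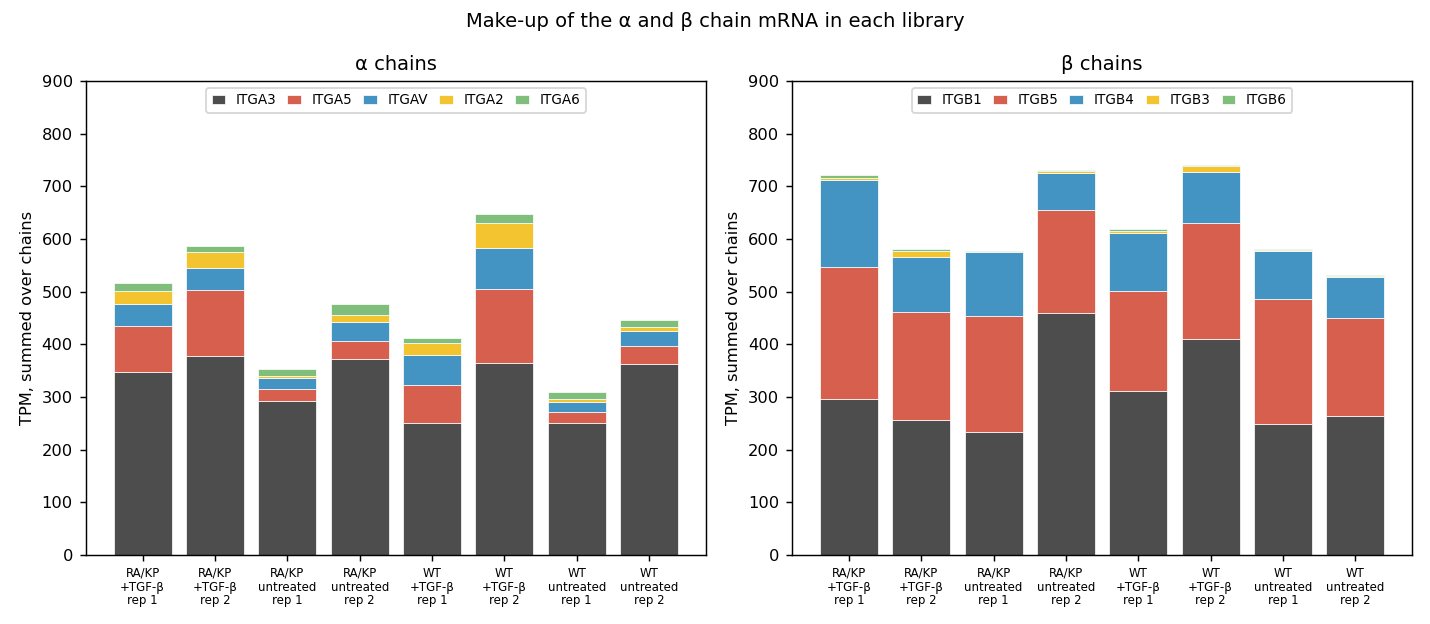
TPM of the α chains (left) and β chains (right) stacked in each of the 8 libraries, from Smad3(RA/KP) cells with TGF-β to untreated wild-type Smad3 (WT) cells. ITGA3 fills 56.3 to 67.4% of the α chain bar with TGF-β and 78.1 to 82.5% without, and ITGB1 is the largest β chain segment in all 8 bars.

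The question the pair of lines addresses is whether the β4 mutation alters a response. For the difference of the TGF-β responses, Smad3(RA/KP) minus wild type, 0 of the 10 genes passed limma's adjusted threshold, where 0.0228% of all genes did, and 1 of the 10 had an unadjusted p under 0.05, where 4.29% of all genes did. That gene was ITGAV, at -0.77 on the log2 scale (95% interval -1.43 to -0.11, unadjusted p = 0.0269, adjusted p = 0.881). The point estimates of ITGA2 (-0.77, unadjusted p = 0.0912) and ITGB1 (-0.73, unadjusted p = 0.0698) were as large, with wider intervals. For ITGA5 the difference was -0.05 (95% interval -0.61 to 0.50), for ITGB3 -0.12 (-0.98 to 0.75) and for ITGB6 -0.19 (-1.15 to 0.76). Differences within these intervals remained compatible with the data. With the GC trend removed the differences were -0.37 for ITGAV, -0.47 for ITGA2 and -0.41 for ITGB1. Without the untreated Smad3(RA/KP) replicate 2 they were -0.55, -0.32 and -0.29. Without the untreated Smad3(RA/KP) replicate 1 the differences were larger, at -1.22 for ITGA2 and -1.17 for ITGB1 (adjusted p = 0.131 and 0.130), and over all libraries left out in turn they ran from -1.05 to -0.49 for ITGAV, -1.22 to -0.32 for ITGA2 and -1.17 to -0.29 for ITGB1.

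The replicates of Smad3(RA/KP) cells differed along base composition. In Smad3(RA/KP) cells the log2 ratio of the 5 genes with the lowest GC content was lower in replicate 2 than in replicate 1: 0.27 against 1.03 for ITGAV (33.5% GC), -0.84 against 0.34 for ITGB1 (39.1%), 0.95 against 2.16 for ITGA2 (40.1%), 0.46 against 1.20 for ITGB6 (40.2%) and -0.67 against 0.14 for ITGA6 (42.5%). For the 5 genes with the highest GC content the replicates were closer. In replicates 1 and 2 of Smad3(RA/KP) cells the ratio was 1.56 and 1.53 for ITGB3 (49.7%) and 1.83 and 1.82 for ITGA5 (54.5%). It was 0.19 and 0.07 for ITGB5 (54.6%), 0.25 and 0.02 for ITGA3 (61.3%) and 0.43 and 0.58 for ITGB4 (63.6%). In wild-type Smad3 cells ITGB6 was also lower in replicate 2 (0.72 against 1.32), while ITGA6 was higher there (0.27 against -0.45). In this same order of GC content, the difference of responses was -0.77 for ITGAV, -0.73 for ITGB1 and -0.77 for ITGA2. Next came -0.19 for ITGB6, -0.17 for ITGA6, -0.12 for ITGB3 and -0.05 for ITGA5. At the high GC end it was 0.16 for ITGB5, 0.13 for ITGA3 and 0.25 for ITGB4. Whether base composition accounts for these differences was not tested. Over all 12426 genes the Smad3(RA/KP) log2 ratio in replicate 2 had a Spearman correlation of 0.662 with GC content, against 0.0865 in replicate 1 and -0.0110 and -0.0125 in the wild-type replicates.

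**Figure D3:**
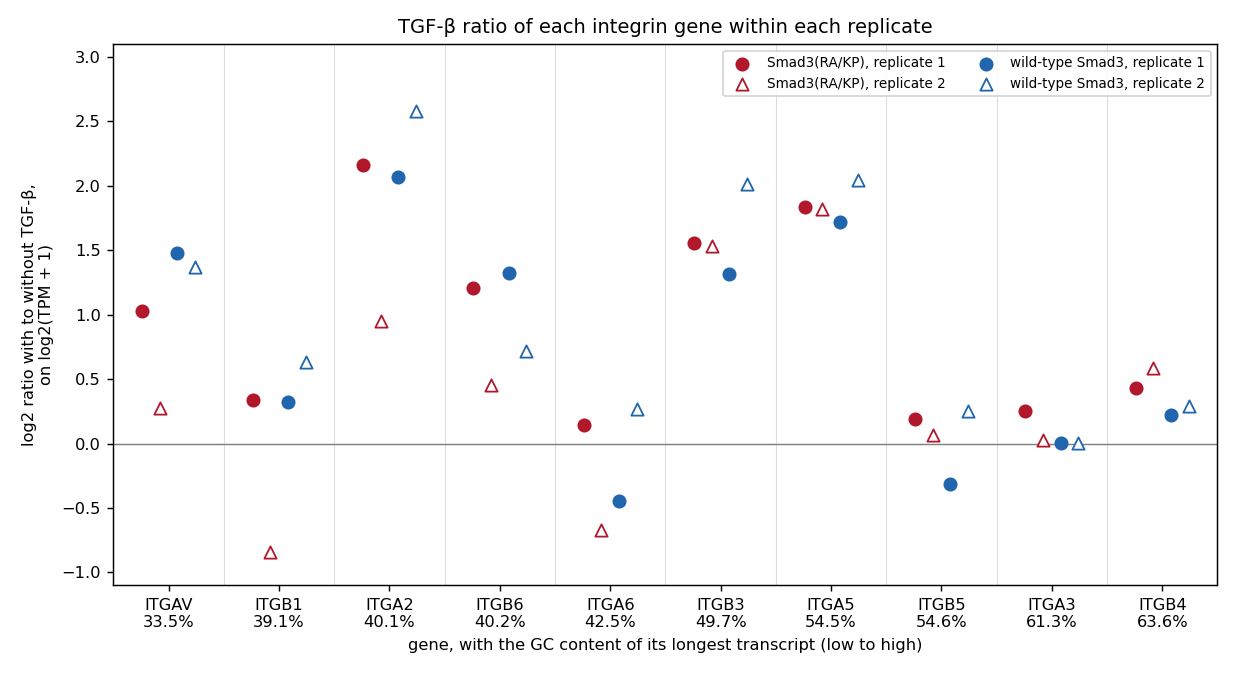
Log2 ratio of treated to untreated TPM (with a pseudocount of 1) for each integrin gene within each replicate, the genes ordered by the GC content of their longest transcript; red is Smad3(RA/KP), blue wild-type Smad3, filled circles replicate 1, open triangles replicate 2. At the low GC end the open red triangles lie below the filled red circles (0.27 against 1.03 for ITGAV), and at ITGA5 they coincide (1.82 and 1.83).

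Comparing the lines at one condition, 0 of the 10 genes passed between TGF-β-treated Smad3(RA/KP) and treated wild-type Smad3 cells (0.00761% of all genes did), and 1 had an unadjusted p under 0.05, ITGAV at -0.65 (unadjusted p = 0.0116, adjusted p = 0.612). Between the untreated lines 0 of the 10 passed (0.0152% of all genes did) and 0 had an unadjusted p under 0.05 by limma. The smallest p there was that of ITGA2, at 0.42 (unadjusted p = 0.182), a value of -0.03 without the untreated Smad3(RA/KP) replicate 2. These comparisons share libraries with the responses above.

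Around these receptors, the remaining integrin genes were mostly low: of 16 other subunits 6 reached the level tested. ITGAE was the highest, at 15.9 to 29.3 TPM, and did not pass. ITGA1, below the level tested, was at 0 in the untreated libraries and 0.387 to 1.28 TPM in the treated ones. Both are named after their values were seen. Of the 6 tested, 1 passed, rising in both lines, where 3.49% of all genes rose in Smad3(RA/KP) and 2.94% in wild-type Smad3 cells. It was ITGA11, the α11 chain of a collagen receptor typical of fibroblasts, at 11.1 and 5.59 TPM in Smad3(RA/KP) cells with TGF-β against 2.72 and 2.11 TPM untreated, and 11.4 and 9.47 TPM in wild-type Smad3 cells with TGF-β against 4.18 and 1.70 TPM untreated. The log2 fold change was 1.40 ± 0.27 in the Smad3(RA/KP) line (adjusted p = 0.0215) and 1.60 ± 0.27 in wild-type Smad3 cells (adjusted p = 0.0112). Both calls were lost without either treated library of the same line (adjusted p 0.0862 to 0.199) and without the block (adjusted p = 0.128 and 0.0818), and also without a filter on low values (adjusted p = 0.106 and 0.0729); that in Smad3(RA/KP) cells was lost without either treated wild-type library too (adjusted p 0.0586 and 0.0595), and that in wild-type Smad3 cells without untreated wild-type replicate 2 (adjusted p = 0.141).

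Of 29 tested proteins that link integrins to actin and signalling, 7 rose in Smad3(RA/KP) cells (3.49% of all genes did) and 6 in wild-type Smad3 cells (2.94% of all genes did), and none fell in either line, with a list median of 0.35 and 0.43 on the log2 scale beside -0.10 and -0.06 over all genes. In the average of both lines 9 of the 29 rose and 1 fell, where 6.22% and 5.08% of all genes did. TNS1, a tensin of mature fibrillar adhesions, was at 7.59 and 8.96 TPM in Smad3(RA/KP) cells with TGF-β against 0.618 and 0.338 TPM untreated, and 5.66 and 7.63 TPM in wild-type Smad3 cells with TGF-β against 0.446 and 0.419 TPM untreated. The untreated values lay below the pseudocount of 1 TPM. Its log2 fold change was 2.65 in the Smad3(RA/KP) line and 2.40 in wild-type Smad3 cells. Over the other settings with all libraries kept, it ran from 1.28 to 4.17 in the Smad3(RA/KP) line and from 1.09 to 3.93 in wild-type Smad3 cells. ZYX, the stress fibre protein zyxin, rose by 1.48 ± 0.19 in the Smad3(RA/KP) line (adjusted p = 0.00328) and 1.19 ± 0.19 in wild-type Smad3 cells (adjusted p = 0.00860). The focal adhesion scaffold gene PXN rose by 1.12 ± 0.16 in the Smad3(RA/KP) line (adjusted p = 0.00513) and 0.80 ± 0.16 in wild-type Smad3 cells (adjusted p = 0.0212). FERMT2, encoding the integrin activator kindlin-2, rose in wild-type Smad3 cells (1.34 ± 0.22, adjusted p = 0.0101) and had 0.67 ± 0.22 in the Smad3(RA/KP) line (adjusted p = 0.127). With the GC trend removed FERMT2 also passed in Smad3(RA/KP) cells, at 1.08 (adjusted p = 0.00350).

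The adhesion calls named here leaned on single libraries, except that of TNS1 in Smad3(RA/KP) cells. Its log2 fold change there ran from 2.42 to 2.88 with 1 library left out. Without the block 1 gene of the list, TNS1, passed in each line, and leaving out 1 library gave 2 to 10 calls in Smad3(RA/KP) cells and 0 to 9 in wild-type Smad3 cells. In Smad3(RA/KP) cells the ZYX call was lost without treated replicate 2 (adjusted p = 0.0533) and the PXN call without treated replicate 1 (adjusted p = 0.0514) or 2 (adjusted p = 0.0602). In wild-type Smad3 cells the ZYX call was lost without any 1 of the 4 wild-type libraries (adjusted p 0.0621 to 0.126), as was the PXN call (adjusted p 0.121 to 0.348). The FERMT2 call there was lost without treated replicate 1 (adjusted p = 0.143) or 2 (adjusted p = 0.151) or untreated replicate 2 (adjusted p = 0.131), and the TNS1 call without treated replicate 2 (adjusted p = 0.0512). Without a filter on low values the wild-type calls of ZYX (adjusted p = 0.0650), FERMT2 (adjusted p = 0.0623) and PXN (adjusted p = 0.0580) were lost, and that of PXN without the variance trend too (adjusted p = 0.0683).

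Among 6 tested hemidesmosome and tetraspanin partners of the laminin receptors, CD151, a tetraspanin bound to α3β1 and α6 integrins, rose in both lines, with 1143 and 1126 TPM in Smad3(RA/KP) cells with TGF-β against 771 and 615 TPM untreated, and 1158 and 1096 TPM in wild-type Smad3 cells with TGF-β against 706 and 676 TPM untreated. Its log2 fold change was 0.72 ± 0.15 in the Smad3(RA/KP) line (adjusted p = 0.0331) and 0.70 ± 0.15 in wild-type Smad3 cells (adjusted p = 0.0356). PLEC, encoding the plectin that binds β4, rose in the Smad3(RA/KP) line (0.89 ± 0.18, adjusted p = 0.0258) and had 0.36 ± 0.18 in wild-type Smad3 cells (adjusted p = 0.377). In the main fit 2 of the 6 rose in Smad3(RA/KP) cells (3.49% of all genes did) and 1 in wild-type Smad3 cells (2.94% of all genes did). Without the block 0 of the 6 passed in either line. The PLEC call was lost without treated Smad3(RA/KP) replicate 1 (adjusted p = 0.161) or 2 (adjusted p = 0.0797), without untreated Smad3(RA/KP) replicate 2 (adjusted p = 0.129), without a filter on low values (adjusted p = 0.104), without the variance trend (adjusted p = 0.0746) and with the GC trend removed (0.58, adjusted p = 0.0720). The CD151 call in Smad3(RA/KP) cells was lost without any 1 library but untreated Smad3(RA/KP) replicate 1 (adjusted p 0.0835 to 0.215), and that in wild-type Smad3 cells without any 1 library but the untreated Smad3(RA/KP) ones (adjusted p 0.0519 to 0.380). Both CD151 calls were lost without a filter on low values (adjusted p = 0.0862 in Smad3(RA/KP) and 0.0872 in wild-type Smad3 cells) and without the variance trend (adjusted p = 0.0894 in Smad3(RA/KP) and 0.0939 in wild-type Smad3 cells). The wild-type call was also lost with FPKM (adjusted p = 0.0517) and with median-ratio scaling (adjusted p = 0.0621).

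The ligand genes did not move alike. All 4 tested collagen chains rose in both lines, where 3.49% of all genes did in Smad3(RA/KP) cells and 2.94% in wild-type Smad3 cells. The list medians were 2.28 in Smad3(RA/KP) cells and 2.24 in wild-type Smad3 cells, beside -0.10 and -0.06 over all genes. COL1A1, a chain of the type I collagen on which the cells were seeded, was at 169 and 104 TPM in Smad3(RA/KP) cells with TGF-β against 12.3 and 3.87 TPM untreated, and 157 and 99.0 TPM in wild-type Smad3 cells with TGF-β against 10.5 and 6.17 TPM untreated, while its partner COL1A2, named after its values were seen, was listed at 0 in all 8 libraries. COL5A1 rose by 2.39 ± 0.19 in the Smad3(RA/KP) line (adjusted p = 0.000293) and 2.27 ± 0.19 in wild-type Smad3 cells (adjusted p = 0.000353). The basement membrane chains COL4A1 and COL4A2 rose by 2.18 and 1.69 in the Smad3(RA/KP) line (adjusted p = 0.000283 and 0.00247) and by 2.22 and 1.54 in wild-type Smad3 cells (adjusted p = 0.000207 and 0.00342). The 4 calls held without the block in both lines; COL4A2 in wild-type Smad3 cells was lost without treated wild-type replicate 2 (adjusted p = 0.0728).

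Of 4 tested ligands of the Arg-Gly-Asp receptors, TGFB1, whose latent form αv receptors bind, rose in the Smad3(RA/KP) line (1.02 ± 0.19, adjusted p = 0.0157) and had 0.70 ± 0.19 in wild-type Smad3 cells (adjusted p = 0.0752). With the GC trend removed TGFB1 also passed in wild-type Smad3 cells, at 0.77 (adjusted p = 0.00638). With no pseudocount it passed there too, at 0.70 (adjusted p = 0.0486). SPP1, encoding osteopontin, fell in the Smad3(RA/KP) line (-0.94 ± 0.18, adjusted p = 0.0198) and had -0.37 ± 0.18 in wild-type Smad3 cells (adjusted p = 0.355). In Smad3(RA/KP) cells 1 of the 4 thus rose, where 3.49% of all genes did, and 1 fell, where 1.5% did. None of the 4 passed in wild-type Smad3 cells, where 4.68% of all genes did. The TGFB1 call was lost without treated Smad3(RA/KP) replicate 1 (adjusted p = 0.0685) or 2 (adjusted p = 0.161), without a filter on low values (adjusted p = 0.0852) and without the variance trend (adjusted p = 0.0516). The SPP1 call was lost without treated Smad3(RA/KP) replicate 2 (adjusted p = 0.185), untreated Smad3(RA/KP) replicate 2 (adjusted p = 0.0983) or treated wild-type replicate 1 (adjusted p = 0.0522) or 2 (adjusted p = 0.0524), without the block (adjusted p = 0.0508), a filter on low values (adjusted p = 0.0839) or the variance trend (adjusted p = 0.0590), and with the GC trend removed (-0.50, adjusted p = 0.104). In none of these 6 lists did a difference of responses between the lines pass the test, with 1 unadjusted p under 0.05, among the laminin chains.

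Among the laminin chains, LAMB3, which encodes the β3 chain of an epithelial laminin, rose in both lines. LAMA3, the α chain of the same laminin, which did not pass and is named after its values were seen, was at 3.52 and 4.55 TPM in Smad3(RA/KP) cells with TGF-β against 3.56 and 8.63 TPM untreated, and 2.62 and 4.11 TPM in wild-type Smad3 cells with TGF-β against 5.63 and 8.86 TPM untreated. LAMB3 rose by 1.12 ± 0.26 in the Smad3(RA/KP) line (adjusted p = 0.0463) and 1.20 ± 0.26 in wild-type Smad3 cells (adjusted p = 0.0360), and both calls were lost without the block (adjusted p = 0.0793 and 0.0610), without a filter on low values (adjusted p = 0.166 and 0.151) and without the variance trend (adjusted p = 0.0844 and 0.0674), in each case with the Smad3(RA/KP) value first. The LAMB3 call in Smad3(RA/KP) cells was also lost without any 1 of 5 libraries, the treated Smad3(RA/KP) ones, untreated Smad3(RA/KP) replicate 2 and the untreated wild-type ones (adjusted p 0.0553 to 0.241). That in wild-type Smad3 cells was lost without any 1 of 5 too, the treated Smad3(RA/KP) ones, treated wild-type replicate 2 and the untreated wild-type ones (adjusted p 0.0541 to 0.368).

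Across the 8 libraries the genes whose log2(TPM + 1) followed ITGA2 most closely, as a description over libraries that share lines and treatment, were FERMT2 (Pearson's r = 0.987), the survival gene MCL1 (0.987), SMURF2 (0.986), an E3 ligase of the Smad pathway, TTPAL (0.986) and DSE (0.985). Among the other integrin genes of the set r with ITGA2 was 0.961 for ITGB3, 0.959 for ITGA5, 0.955 for ITGAV and 0.802 for ITGB6, and between -0.0128 and 0.570 for the remaining 5.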

How the data were processed

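Deposited by the authors was a gene table for each of the 8 libraries from StringTie (2.0.4 in the submitters' processing notes), run without assembly of new transcripts after alignment of the reads to GRCh38 by HISAT2 (2.1.0). The sources used here do not give the annotation. The deposited tables hold TPM and FPKM, both scaled by the authors for transcript length and library size, and mean base coverage. TPM was analysed and FPKM served as an alternative. Mapped bases were recovered by dividing coverage by FPKM wherever FPKM reached 10. Read counts are not part of these tables, and precision rests on the spread between libraries.

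Records of one symbol were summed (33122 records, 30017 symbols), and symbols averaging 1 TPM or more were tested with limma 3.58.1 (R 4.3.3) after adding 1 TPM and taking log2, a scale that understates changes of low genes such as ITGB3 and ITGB6. All 8 libraries entered 1 fit with 4 groups, the replicate number as a block and a variance trend on mean level, with Benjamini-Hochberg adjusted p over 13141 genes and 3 residual and 5.90 prior degrees of freedom. The block follows the study's ratios within 2 independent experiments. Whether same-numbered libraries of both lines shared an experiment is not stated, so the pairing is assumed. Their deviations from the group means correlated at 0.0484 to 0.332, the lowest value being that of treated with untreated Smad3(RA/KP) cells.

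GC content was that of the longest GENCODE transcript of each symbol (12426 of the tested genes, 94.6%), and its trend was fitted per library with a lowess span of 0.3. Alternatives were pseudocounts of 0.5 and 5, a filter at 5 TPM or none, FPKM, median-ratio scaling, no block, no variance trend, GC trends removed, each library left out in turn and, added after the data were seen, no pseudocount. All 10 integrin genes are named. Of each further list up to 4 genes past the threshold in either line are named, those with the largest average response, and for likeness the 5 genes closest to the integrin gene with the largest average response. The integrin genes and lists were chosen with earlier results of these data known. Lists count the symbols as the tables spell them. Some genes of the lists are not reported here. Promoter sequences are from RefSeq. The test was run on simulated data before use. Python 3.11.15 and matplotlib 3.10.9 drew the figures.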

Additional observations from a re-analysis of the deposited data

How the results depend on the processing

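The number of integrin genes past the threshold was 3 in Smad3(RA/KP) cells, 4 in wild-type Smad3 cells and 5 in the average of both lines. Leaving out 1 library gave 1 to 4 in each line and 4 to 6 in the average. With no replicate block, which drops the assumed pairing of same-numbered libraries, it was 1 in each line and 5 in the average. Without a filter on low values it was 1 in Smad3(RA/KP) cells, with GC trends removed 5, and with a filter at 5 TPM 3 in the average, where ITGB3 and ITGB6 were not tested. Between the lines it was 0 under every setting. Over all genes, 655 passed in Smad3(RA/KP) cells and 615 in wild-type Smad3 cells. Without the block it was 269 and 277, without a filter 242 and 287, and with GC trends removed 1218 in wild-type Smad3 cells. In the average it was 1484, 870 without the block and 959 without a filter. Leaving out 1 library gave 163 (without treated Smad3(RA/KP) replicate 2) to 2622 (without untreated Smad3(RA/KP) replicate 1) in Smad3(RA/KP) cells, 106 (without treated wild-type replicate 1) to 1011 in wild-type Smad3 cells and 680 to 2920 in the average. For the difference between the lines it was 3, and 0 to 8 over these settings. In Smad3(RA/KP) cells 69.9% of the calls were higher with TGF-β, against 59.7% with FPKM, 83.5% without a filter and 37.9% without untreated replicate 1.

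Among values within their error, several changed sign. With GC trends removed, ITGA3, ITGA6 and ITGB1 were at -0.075, 0.031 and 0.11 in Smad3(RA/KP) cells, ITGB5 at 0.033 in wild-type Smad3 cells (0.033 also with median-ratio scaling), ITGA3 and ITGA6 at -0.00089 and 0.0018 in the average, and the difference of responses at -0.15 for ITGA3, 0.059 for ITGA6, -0.083 for ITGB4 and 0.11 for ITGB6. With FPKM ITGA3 was at -0.040 in wild-type Smad3 cells. Leaving out 1 library gave, in Smad3(RA/KP) cells, -0.039 to 0.32 for ITGA3, -0.64 to 0.12 for ITGA6 and -0.69 to 0.19 for ITGB1. In wild-type Smad3 cells it gave -0.10 to 0.11 for ITGA3, -0.44 to 0.26 for ITGA6 and -0.27 to 0.21 for ITGB5. In the average it gave -0.018 to 0.16 for ITGA3, -0.37 to 0.015 for ITGA6, -0.11 to 0.33 for ITGB1 and -0.072 to 0.17 for ITGB5. For the difference it gave -0.044 to 0.31 for ITGA3, -0.25 to 0.14 for ITGA5, -0.56 to 0.21 for ITGA6, -0.45 to 0.21 for ITGB3, -0.085 to 0.40 for ITGB5 and -0.49 to 0.11 for ITGB6. For ITGA2 between the untreated lines it gave -0.032 to 0.87. The causes were not tested. Among the integrin genes no called value changed sign.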
